A study of Mus musculus with 16 samples.

Results

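The 7 genes described here carry the steps of hepatic gluconeogenesis that glycolysis does not share, together with a coactivator of their transcription. They were chosen by name: Pcx, Pck1, Pck2, Fbp1, Slc37a4, Ppargc1a and the glucose-6-phosphatase catalytic subunit, which the table holds as G6pc1. All 7 were found among the 41079 genes counted. Liver RNA of 16 mice was sequenced after poly-A selection, with 4 mice for each combination of sex and genotype, LKO or CRE- control, at an age of 20 to 22 months. All mice carried Gcgr alleles with loxP sites around a block of exons, on the C57BL/6J background. LKO mice also carried the Albumin-Cre transgene, which is active in hepatocytes and deletes that block during development, so hepatocytes of these mice are meant to lack the receptor lifelong. CRE- mice had the same floxed alleles and no Cre. Between 33268424 and 56488920 reads per library were counted on genes.

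Gluconeogenesis makes glucose from lactate, amino acids and glycerol when food is absent. Pyruvate is carboxylated in mitochondria, converted to phosphoenolpyruvate, carried back along the reversible part of glycolysis, and released as free glucose through fructose-1,6-bisphosphatase and glucose-6-phosphatase. Glucagon, through its receptor and cAMP, is a classical inducer of this programme in the liver, and insulin opposes it. The mice had free access to chow unless fasted for an experiment; no fast is stated for these livers in the sources used here, and the hour of dissection is not given there.

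Levels are given as CPM, counts scaled to a common library size after TMM normalization, and between genes only as RPKM, which is CPM per kilobase of exon. In male CRE- controls the order by mean RPKM was Pck1 at 671, Fbp1 at 522, Pcx at 129, G6pc1 at 101, Slc37a4 at 49.6, Pck2 at 1.83 and Ppargc1a at 0.783. Pck1 and Fbp1 overlapped between libraries in this order, as did Pcx and G6pc1, whereas the other neighbours were apart. In female CRE- controls Fbp1 led at 571 RPKM, above Pck1 at 301 RPKM, with overlapping libraries, and G6pc1 at 67.8 RPKM overlapped Slc37a4 at 45.1 RPKM. In male LKO mice Fbp1 was first at 461 RPKM, and each neighbouring pair from Fbp1 down to Slc37a4 overlapped. In female LKO mice Pck1 was first at 489.8 RPKM and overlapped Fbp1 at 389.6 RPKM, and G6pc1 overlapped Slc37a4. Pck2 and Ppargc1a were sixth and last in every group, with no overlap between them. Over the 16 libraries Fbp1 ranked 130 and Pck1 156 of the 16742 genes tested by mean RPKM, and Ppargc1a ranked 11970.

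**Figure D1:**
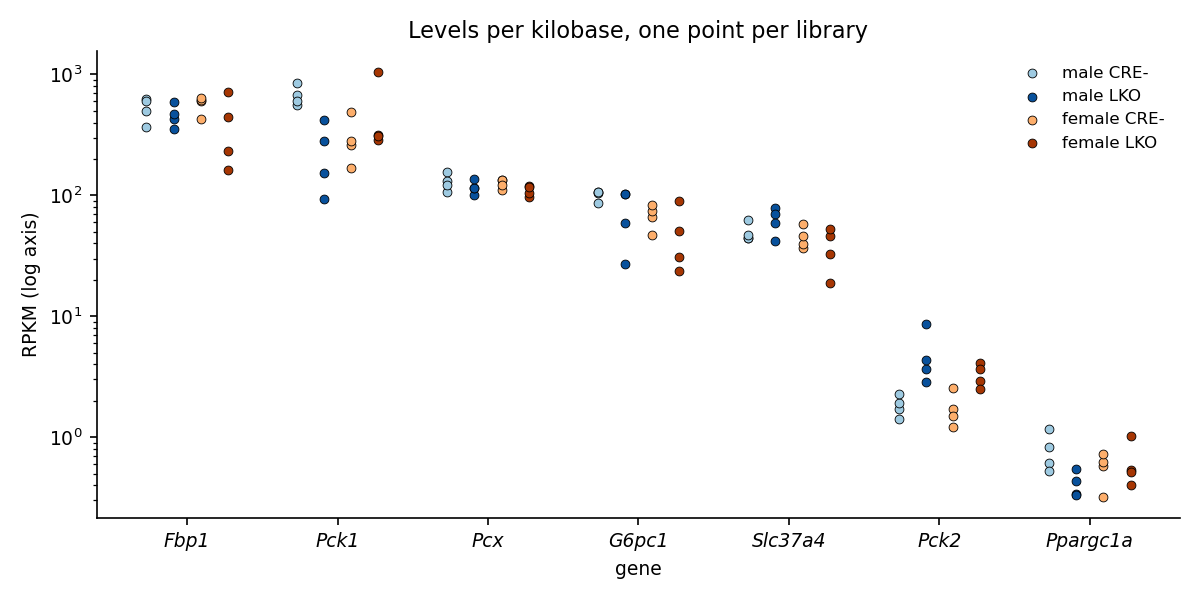
RPKM on a log axis for each of the 7 genes, with a point for each library coloured by group. By mean over the 16 libraries Fbp1 and Pck1 lie highest, with Pcx, G6pc1 and Slc37a4 below them. Single points overlap, and in male LKO replicate 2 Pck1 is at 92.4 RPKM, below Pcx at 114 RPKM. Pck2 and Ppargc1a are at 8.55 RPKM or less in all libraries.

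The targeted gene, Gcgr, encodes the glucagon receptor. It was at 190.4, 193, 127 and 189.6 CPM in male CRE- controls and at 117, 136, 129.9 and 160.4 CPM in the male knockouts. Female controls had 162, 208, 201 and 180.0 CPM, and female LKO mice 48.8, 132, 119 and 93.6 CPM. Every female LKO library was below every female control, while the male groups overlapped because male CRE- replicate 3 was low. The log2 fold change was -0.93 (SE 0.25) in females, with a Benjamini-Hochberg adjusted p of 0.0443 from edgeR's quasi-likelihood test, and -0.37 (SE 0.24) in males, with an adjusted p of 0.671 from the same test. The female value was past the threshold of 0.05 in 1 of 8 fits that left out a library, and leaving out LKO replicate 1 gave -0.69. Reads from exons that Cre leaves in place are part of this count, so it does not measure intact receptor transcript. In bulk liver, fewer hepatocytes and less RNA per hepatocyte cannot be told apart.

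None of the 7 genes passed the threshold in the main test. In males 0 of 7 had an adjusted p under 0.05 by edgeR's quasi-likelihood test, where 0.454% of all genes tested did, and 3 of 7 had an unadjusted p under 0.05, namely Pck1, Pck2 and Ppargc1a, beside 1595 of all 16742. In females it was 0 of 7 by edgeR, where 4.24% of all genes did, and 1 of 7, Pck2, had an unadjusted p under 0.05, beside 3584 of all 16742. DESeq2 called 1 of 7 in each sex, Pck2 both times, where it called 1.70% of all genes in males and 10.1% in females. Libraries of LKO and control mice did not overlap for 2 of 7 genes in males, where 6.49% of all genes did not, and for 0 of 7 in females, where 11.6% did not. The median log2 fold change of the 7 was -0.18 in males and -0.20 in females, beside -0.01 and 0.04 over all genes tested. The male and female comparisons use separate mice.

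**Figure D2:**
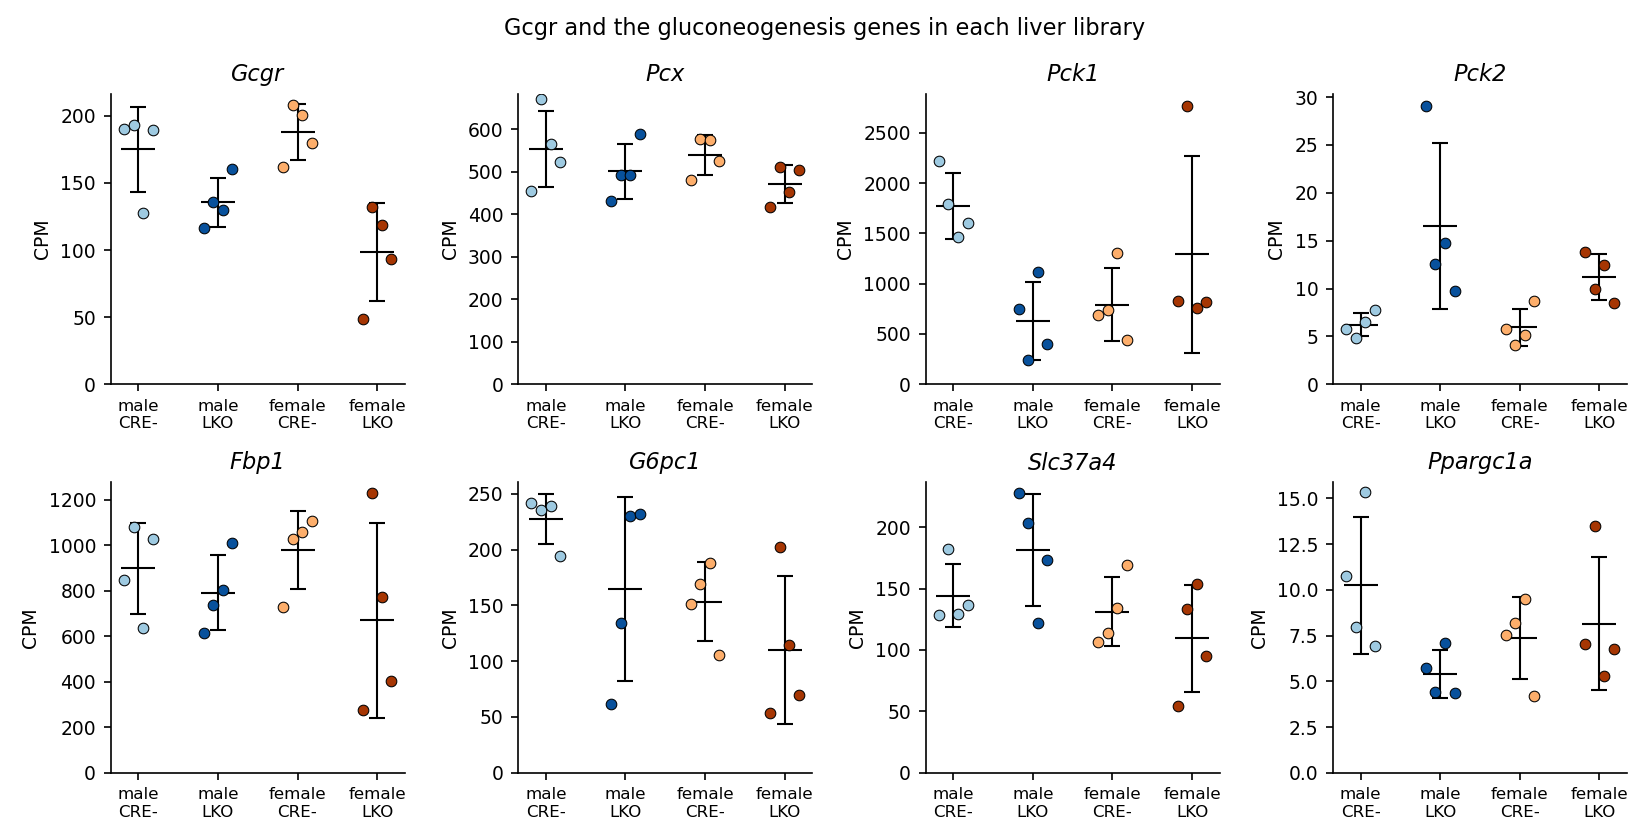
CPM of Gcgr and the 7 genes in each library, with a point for each mouse and the mean ± SD of the 4 mice of each group; every axis starts at 0. Pck1 is lower in all 4 male LKO mice than in all 4 male controls, and female LKO replicate 2 stands alone at 2765 CPM.

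The entry step is carried out by pyruvate carboxylase, encoded by Pcx, which turns pyruvate into oxaloacetate in mitochondria. Pcx was at 456, 672, 565 and 524 CPM in male controls and at 432, 492, 493 and 589 CPM in male LKO mice. In female controls it was at 481, 577, 576 and 525 CPM, and in female LKO mice at 416, 511, 452 and 506 CPM. The groups overlapped in both sexes, and the spread within each was narrow, with a coefficient of variation of at most 16.3%. LKO differed from control by a log2 fold change of -0.14 (SE 0.17) in males and -0.20 (SE 0.17) in females, with edgeR adjusted p of 0.818 and 0.546.

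Pck1, the cytosolic phosphoenolpyruvate carboxykinase, converts oxaloacetate to phosphoenolpyruvate and is a textbook target of cAMP signalling in liver. It was at 2222, 1791, 1465 and 1603 CPM in male controls and at 748, 244, 1112 and 403 CPM in male LKO mice. Every male LKO mouse was below every male control, and the LKO values were widely spread. The group means were 1770.4 ± 329.6 CPM (SD, n = 4) and 627 ± 386 CPM (SD, n = 4). In log2 the difference was -1.50 (SE 0.49), with an unadjusted p of 0.00696. Over all genes tested its adjusted p was 0.272 by edgeR's quasi-likelihood test and 0.0630 by DESeq2. Leaving out each male library in turn moved the log2 fold change between -1.93 and -1.24.

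In females Pck1 was at 691, 738, 1300.3 and 443 CPM in controls and at 826, 2765, 760.2 and 815 CPM in LKO mice. The female groups overlapped, and 3 of the 4 LKO mice lay close together, with replicate 2 far above them. The female log2 fold change was 0.70 (SE 0.48), with an edgeR adjusted p of 0.430. Without female LKO replicate 2 it was 0.01, so the positive value rested on that mouse. The same mouse had the highest Ppargc1a of the female libraries, at 13.5 CPM, and the highest Fbp1 of all 16, at 1228 CPM. Its adipocyte markers summed to 15.5 CPM, beside at most 1.21 CPM in the other female LKO mice and 8.52 CPM in female controls. Its skeletal muscle markers summed to 14.8 CPM, beside at most 2.05 CPM in the other female LKO mice and 29.7 CPM in female controls. The part of these cells in its Pck1 level was not tested.

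Pck2, the mitochondrial phosphoenolpyruvate carboxykinase, makes phosphoenolpyruvate inside the organelle and is also known as a target of the stress-induced transcription factor ATF4. It was at 5.82, 4.83, 6.50 and 7.73 CPM in male controls and at 29.1, 12.5, 14.8 and 9.70 CPM in male LKO mice. All 4 male LKO mice were above all 4 male controls, with LKO replicate 1 far above the rest. The log2 fold change in males was 1.41 (SE 0.32), a 2.66-fold higher level, with an unadjusted p of 0.000365. The adjusted p over all genes tested was 0.0661 by edgeR's quasi-likelihood test and 0.00358 by DESeq2. Its log2 fold change was 0.97 without male LKO replicate 1, and its edgeR adjusted p ranged from 0.0554 to 0.212 with each male library left out in turn.

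In females Pck2 was at 5.77, 4.15, 5.10 and 8.71 CPM in controls and at 13.8, 9.92, 12.5 and 8.53 CPM in LKO mice. A small overlap remained, since female LKO replicate 4 lay just below female CRE- replicate 4. The log2 fold change was 0.92 (SE 0.31), with an unadjusted p of 0.00953. Its adjusted p was 0.0987 by edgeR's quasi-likelihood test and 0.0497 by DESeq2, and the estimate stayed between 0.78 and 1.17 with each female library left out. Both carboxykinases produce phosphoenolpyruvate, so their balance per length was described without a test. Pck2 made up 0.203% to 0.372% of the summed RPKM of Pck1 and Pck2 in male controls and 1.02% to 3.83% in male LKO mice. In females the share ran from 0.303% to 1.50% in controls and from 0.277% to 1.28% in LKO mice. The male ranges were separate and the female ranges overlapped, and Pck1 exceeded Pck2 per kilobase in every library.

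**Figure D3:**
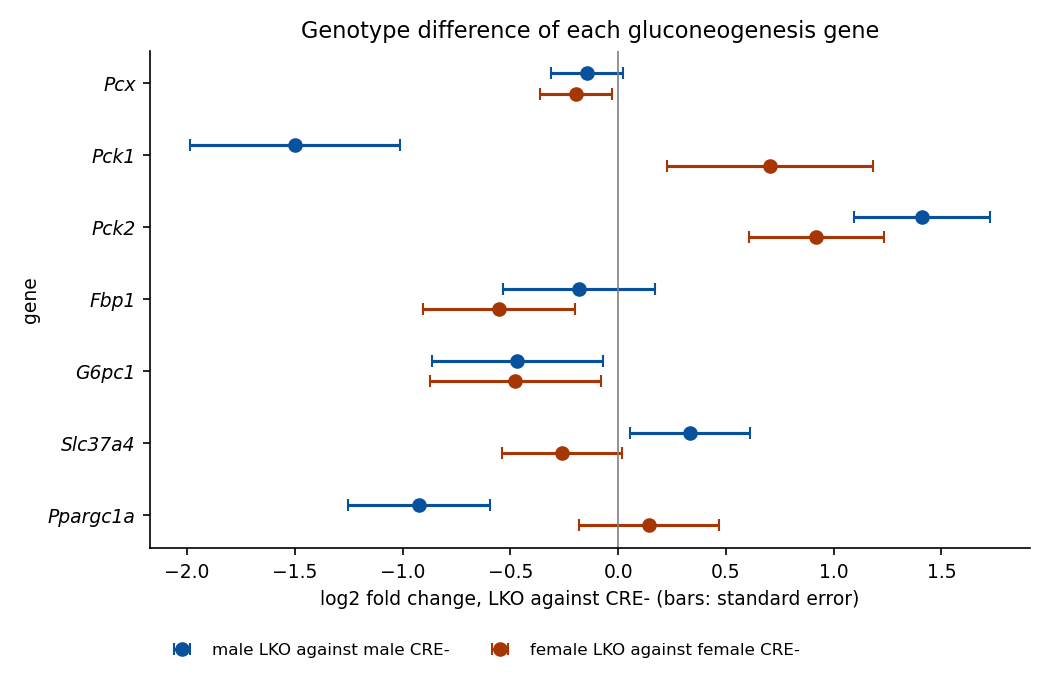
Log2 fold change of LKO against CRE- for each gene and sex, with bars of 1 standard error. Pck2 lies to the right of 0 in both sexes, at 1.41 and 0.92, while Pck1 lies at -1.50 in males and 0.70 in females.

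Fbp1, fructose-1,6-bisphosphatase, removes a phosphate from fructose-1,6-bisphosphate, the step that opposes phosphofructokinase. It was at 849, 1080.1, 634 and 1027 CPM in male controls and at 614, 738, 805 and 1009 CPM in male LKO mice. The male groups overlapped almost fully, with a log2 fold change of -0.18 (SE 0.35, edgeR adjusted p = 0.899). In females it was at 729, 1029, 1057 and 1108 CPM in controls and at 277, 1228, 770.5 and 401 CPM in LKO mice. Female LKO mice lay on both sides of the controls, with replicates 1 and 4 below all of them and replicate 2 above all of them. The female log2 fold change was -0.55 (SE 0.35, edgeR adjusted p = 0.400). Leaving out female LKO replicate 2 gave -1.02, and leaving out replicate 1 gave -0.27.

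G6pc1, the catalytic subunit of glucose-6-phosphatase, frees glucose in the endoplasmic reticulum. It was at 242, 236, 239 and 194 CPM in male controls and at 61.5, 134, 230.3 and 232 CPM in male LKO mice. Male LKO replicates 3 and 4 matched the controls while replicates 1 and 2 were lower. In females G6pc1 was at 151, 169, 188 and 105 CPM in controls and at 53.7, 202, 115 and 69.9 CPM in LKO mice. The female groups overlapped, with LKO replicates 1 and 4 below all controls and LKO replicate 2 above them. Log2 fold changes were -0.47 (SE 0.40) in males and -0.48 (SE 0.40) in females, with edgeR adjusted p of 0.745 and 0.537. The male value was -0.21 without male LKO replicate 1. The female value was -0.95 without LKO replicate 2 of that sex and -0.23 without replicate 1.

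Slc37a4 encodes the transporter that brings glucose-6-phosphate to the phosphatase. It was at 129, 182, 129 and 136 CPM in male controls and at 228, 203, 122 and 173 CPM in male LKO mice. In females it was at 107, 114, 134 and 169 CPM in controls and at 54.7, 133, 154 and 95.3 CPM in LKO mice. The groups overlapped in both sexes, and male LKO replicates 1 and 2 had the highest levels of all 16 libraries. The log2 fold change was 0.33 (SE 0.28) in males and -0.26 (SE 0.28) in females, with edgeR adjusted p of 0.740 and 0.641, and the male value was 0.19 when LKO replicate 1 was left out. Within the phosphatase system the catalytic subunit and the transporter did not vary together, with a Pearson r of 0.27 over the 16 libraries.

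Ppargc1a encodes PGC-1α, a coactivator that raises transcription of gluconeogenic genes and of mitochondrial genes. It was at 10.8, 7.998, 15.3 and 6.92 CPM in male controls and at 5.71, 4.41, 7.11 and 4.38 CPM in male LKO mice. The male groups overlapped only through LKO replicate 3, which lay just above CRE- replicate 4. The log2 fold change in males was -0.92 (SE 0.33), with an unadjusted p of 0.0122. Its adjusted p was 0.333 by edgeR's quasi-likelihood test and 0.178 by DESeq2. In females Ppargc1a was at 7.54, 8.21, 9.51 and 4.22 CPM in controls and at 7.05, 13.5, 5.30 and 6.77 CPM in LKO mice. The female groups overlapped, with a log2 fold change of 0.14 (SE 0.33, edgeR adjusted p = 0.852), which was -0.21 without female LKO replicate 2.

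Whether the genotype difference itself differed between the sexes was tested as an interaction over all 16 libraries. By edgeR's quasi-likelihood test 0 of 7 genes had an adjusted p under 0.05, where 0% of all genes tested did, and 2 of 7 had an unadjusted p under 0.05, among 2672 of all genes. DESeq2 called 1 of the 7, Pck1, where it called 2.19% of all genes. The largest estimate was that of Pck1, where the female log2 fold change exceeded the male by 2.20 (SE 0.68). Its unadjusted p was 0.00504, and its adjusted p was 0.201 by edgeR and 0.0394 by DESeq2. Without female LKO replicate 2 the estimate was 1.51. For Ppargc1a the female value exceeded the male by 1.07 (SE 0.46), with an unadjusted p of 0.0340 and an edgeR adjusted p of 0.286, and leaving out female LKO replicate 2 gave 0.71. For Pck2 the difference was -0.49 (SE 0.44), with an edgeR adjusted p of 0.576, and leaving out male LKO replicate 1 gave -0.05.

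The controls of each sex were compared as well, since the male and female baselines enter these contrasts. Between female and male CRE- controls 0 of 7 genes passed by edgeR, where 0.920% of all genes did, and DESeq2 also called 0 of 7, where it called 2.65%. Pck1 alone of the 7 had an unadjusted p under 0.05, as did 2121 of all 16742 genes. Pck1 was at 793 ± 362 CPM (SD, n = 4) in female controls, and all 4 female controls were below all 4 male controls. The log2 difference was -1.16 (SE 0.48), with an unadjusted p of 0.0284 and an edgeR adjusted p of 0.331. G6pc1 was likewise lower in all female controls than in all male controls, with a log2 difference of -0.57 (SE 0.40, edgeR adjusted p = 0.554). These were 2 of 7 genes without overlap, where 7.54% of all genes had none. Pck1 ran from 244 to 1112 CPM in male LKO mice and from 443 to 1300.3 CPM in female controls.

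The 7 genes did not vary as a block across livers. Of their pairs, Pck1 and Ppargc1a had the highest Pearson r of log2 CPM, 0.83 over 16 libraries, with a Spearman rho of 0.74. It was 0.74 after the group means were removed, and 0.76 without the 2 libraries farthest from the median Pck1. Fbp1 and G6pc1 had an r of 0.72, which was 0.37 without the 2 libraries farthest from the median Fbp1, so that relation rested largely on those livers. Pck2 ran opposite to Pcx, at -0.66, and to G6pc1, at -0.57, and had an r of -0.31 with Pck1, which was 0.01 with the group means removed. These values are descriptions over libraries of 4 groups, which share sex, genotype and scaling.

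**Figure D4:**
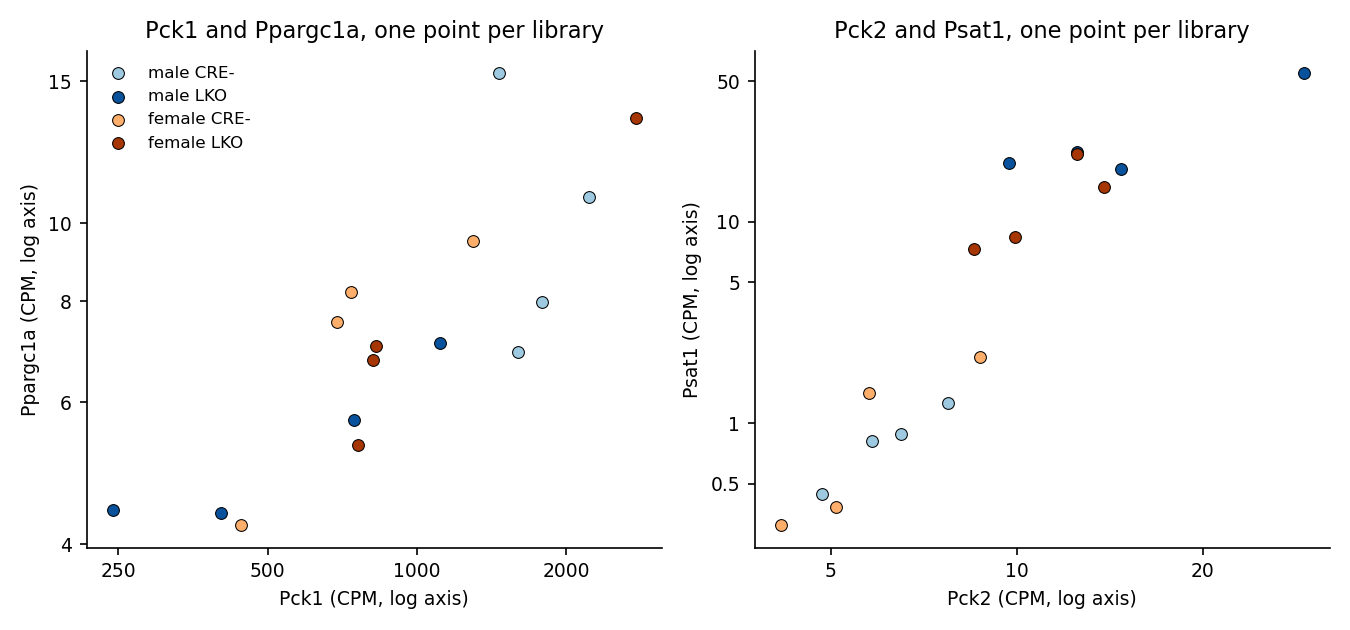
CPM of Pck1 against Ppargc1a and of Pck2 against Psat1, on log axes, with a point for each of the 16 libraries coloured by group. Ppargc1a is high where Pck1 is high (r = 0.83), and the LKO libraries of both sexes lie above all controls in Psat1 (r = 0.93 with Pck2).

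The genes whose log2 CPM was most like each member over the 16 libraries were taken from 11582 genes. Those most like Pck1 were Slc7a2, with an r of 0.84, Ppargc1a at 0.83 and Slc25a25 at 0.78. Those most like Pck2 were Psat1 at 0.93, Mthfd2 at 0.91 and Phgdh at 0.90. With the group means removed, these 3 were at 0.83, 0.74 and 0.74. The genes were picked for their r over the same libraries, so these values are a description only. Those most like Ppargc1a were Klhl3 and Arhgap6, each at 0.91, and Akap13 at 0.86. Fbp1 was most like Pbld1 at 0.95, Acy3 at 0.93 and Apoe at 0.93. G6pc1 was most like the unnamed loci Gm34654 at 0.90 and Gm41999 at 0.89 and the gene Wdcp at 0.89. Slc37a4 was most like Lrrc28 at 0.91, Tkfc at 0.90 and Ogfod3 at 0.89, and Pcx was most like Ptgr2 at 0.86, Tmem135 at 0.85 and Nrep at 0.84. The same 3 genes were found for every member with a prior count of 0.5 in place of 2.

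Promoter windows of all 7 genes were read from the RefSeq table for GRCm38.p6, which runs from 250 bases before to 50 bases after each start and lists G6pc1 under its older symbol G6pc. They gave 10 windows, since Slc37a4 and Pcx have more than one start. Each was searched on both strands for the cAMP response element half-site TGACG, its palindrome TGACGTCA and its variant TTACGTCA, both of which contain the half-site, and for the forkhead motif TGTTTAC and the C/EBP-ATF response element TGATGCAA. The half-site was in 4 of the 10 windows, those of Pck1 and Ppargc1a and a pair of overlapping windows of Slc37a4, where 20.8% of all 32851 windows hold it. The palindrome, in 1.79% of all windows, and the forkhead motif, in 3.65%, were in none of the 10. The variant TTACGTCA, in 0.499% of all windows, was in that of Pck1, starting 93 bases before the start. The C/EBP-ATF element, in 0.895% of all windows, was in that of G6pc1 on the opposite strand. The windows of Pck1 and Ppargc1a are shown because these genes had the highest correlation of any pair, and that of Pck2 because its levels ran opposite to those of Pcx and G6pc1. The Pck2 window held none of these letters, and neither did those of Pcx and Fbp1 or the third window of Slc37a4. They lie at chr2:173152823-173153122 on the plus strand, chr5:51567676-51567975 on the minus strand and chr14:55540016-55540315 on the plus strand, with capitals marking matches. A match is a description of these letters only.
Pck1: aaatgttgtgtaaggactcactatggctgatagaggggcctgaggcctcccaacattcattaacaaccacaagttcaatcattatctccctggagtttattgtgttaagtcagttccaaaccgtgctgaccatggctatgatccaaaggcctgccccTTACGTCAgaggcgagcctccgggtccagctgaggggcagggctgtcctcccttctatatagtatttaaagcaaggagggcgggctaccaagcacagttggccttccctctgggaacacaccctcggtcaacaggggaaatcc
Ppargc1a: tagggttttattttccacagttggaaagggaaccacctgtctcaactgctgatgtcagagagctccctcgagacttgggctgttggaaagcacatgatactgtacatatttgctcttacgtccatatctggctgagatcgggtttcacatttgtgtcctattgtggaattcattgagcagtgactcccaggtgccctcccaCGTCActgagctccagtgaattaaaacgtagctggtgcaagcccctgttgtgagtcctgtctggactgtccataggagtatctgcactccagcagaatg
Pck2: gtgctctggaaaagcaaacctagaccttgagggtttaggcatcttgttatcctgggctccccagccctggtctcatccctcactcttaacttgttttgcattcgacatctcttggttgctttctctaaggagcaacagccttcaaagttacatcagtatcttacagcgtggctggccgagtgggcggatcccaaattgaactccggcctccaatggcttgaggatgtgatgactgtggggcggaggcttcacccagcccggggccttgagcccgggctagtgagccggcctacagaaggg

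The genes around the 7 were described by lists, each by how many of its genes passed edgeR's threshold and by its median log2 fold change. Over all 16742 genes tested, 0.454% in males and 4.24% in females passed edgeR's threshold. An unadjusted edgeR p under 0.05 was found for 1595 of them in males and 3584 in females. DESeq2 called 1.70% and 10.1% of all genes. The list counts are to be read beside these shares. Of 21 genes for substrate entry and shuttles, 0 passed in either sex by edgeR, with 2 in males and 8 in females at an unadjusted p under 0.05, and 1 in each sex by DESeq2. Their median was 0.10 in males and -0.44 in females. Sds, which turns serine into pyruvate, had the smallest p in males, with means of 205 CPM in controls and 55.8 CPM in LKO mice, a log2 fold change of -1.87 (edgeR adjusted p = 0.109). In females it was Got2, the mitochondrial aspartate aminotransferase of the malate shuttle, with a log2 fold change of -0.61 (edgeR adjusted p = 0.0709). All 4 LKO livers were below all 4 controls in each of these instances.

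Of 9 genes of the reversible steps shared with glycolysis, 0 passed in either sex by edgeR, with 1 in males and 4 in females at an unadjusted p under 0.05, and 0 in each sex by DESeq2. Their medians were -0.13 in males and -0.08 in females, and the smallest p in both belonged to the enolase gene Eno3, at log2 fold changes of 0.41 and 0.50. Of 20 genes of the opposing glycolytic steps, 0 passed in males by edgeR, with 2 at an unadjusted p under 0.05 and 0 by DESeq2, and 2 rose in females, with 10 at an unadjusted p under 0.05 and 5 by DESeq2. Those that rose were Hk2, a hexokinase, at 2.24 (edgeR adjusted p = 0.0334), and Pfkfb3, which makes the phosphofructokinase activator fructose-2,6-bisphosphate, at 1.25 (edgeR adjusted p = 0.0432). Hk2 was at 36.0, 3.91, 7.99 and 6.31 CPM in female LKO mice, and without replicate 1, the mouse with the highest macrophage markers, it was at 1.11 (edgeR adjusted p = 0.106). From 0 to 4 genes of this list passed in females with a library left out. In males the smallest p was that of Pdk4, which restrains pyruvate oxidation, at 1.81 (edgeR adjusted p = 0.295), with LKO replicates 1 and 3 high. Of 7 tested relatives of the members, 0 passed in males by edgeR, with 1 at an unadjusted p under 0.05 and 0 by DESeq2. In females 3 had an unadjusted p under 0.05, DESeq2 called 2, and all 7 estimates were above 0. The median of the relatives was 0.14 in males and 0.60 in females. With a library left out the female median ran from 0.24 to 1.06. Fbp2, the muscle bisphosphatase, rose in females by 2.34 in log2 from 0.186 to 0.969 CPM (edgeR adjusted p = 0.0312). In males its log2 fold change was 1.55, from 0.155 to 0.459 CPM (edgeR adjusted p = 0.3455), with every LKO mouse above every control. Fbp2 passed in 3 of 8 fits that left out a female library, and not without LKO replicate 4 (edgeR adjusted p = 0.0691).

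Among 26 transcriptional regulators of gluconeogenesis, 1 passed in males and 3 in females by edgeR, with 5 and 6 at an unadjusted p under 0.05 and 4 and 4 by DESeq2. Trib3, a pseudokinase that inhibits Akt and is itself induced by ATF4, rose in both, by 2.03 (edgeR adjusted p = 0.0409) and 1.60 (edgeR adjusted p = 0.0381). In females Sik1, a cAMP-induced kinase that restrains the CREB coactivator CRTC2, rose by 2.22 (edgeR adjusted p = 0.0194), and by 1.35 without LKO replicate 4 (edgeR adjusted p = 0.0339), which held 190.9 CPM where the other female LKO mice had 25.2 to 58.6 CPM. No gene of this list passed in females without CRE- replicate 2, 3 or 4. Trib3 passed in 1 of 8 such fits in males and 2 of 8 in females. The medians over this list were -0.13 in males and -0.00 in females. Of 16 other cAMP-responsive liver genes, 1 fell in males, Pde4b, a cAMP phosphodiesterase, from 21.1 to 5.12 CPM, by 2.04 in log2 (edgeR adjusted p = 0.00290). In females 2 rose, Sik1 and Igfbp1, an insulin-repressed binding protein, the latter at 3.04 (edgeR adjusted p = 0.0266). Its female LKO values ran from 62.8 to 728 CPM, and without replicate 4 the value was 1.62 (edgeR adjusted p = 0.0660). In males Igfbp1 was higher by 2.16 (edgeR adjusted p = 0.237), with every LKO mouse above every control. Without female CRE- replicate 2, 3 or 4, none of these cAMP-responsive genes passed in females. Pck1, the classical cAMP target among the 7, stood beside a list with medians of 0.01 in males and 0.39 in females. Of its 16 genes, 5 in males and 8 in females had an unadjusted p under 0.05, and DESeq2 called 1 and 4.

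Beside Pck2, of 26 other ATF4 targets listed, 8 rose in males and 9 in females by edgeR and 0 fell in either, while DESeq2 called 16 and 13. The median was 1.35 in males and 1.17 in females, below the 1.41 of Pck2 in males and above its 0.92 in females. Asns, asparagine synthetase, rose by 6.32 and 4.50 (edgeR adjusted p = 0.000425 and 0.00274), and Psat1 and Phgdh, enzymes of serine synthesis, rose by 5.07 and 4.32 in males and by 3.64 and 2.15 in females. Fgf21, a stress-induced liver hormone, rose by 5.21 and 4.04, and Mthfd2, a mitochondrial folate enzyme, by 2.56 and 2.12. Female LKO mice had 8.13, 24.3, 90.9 and 1.50 CPM of Fgf21 and overlapped their controls through replicate 4, and without replicate 3 the female value was 2.57 (edgeR adjusted p = 0.0377). With each library left out in turn, the counts of ATF4 targets that passed ran from 3 to 7 in males and from 2 to 12 in females. Psat1 was at 54.6 CPM in male LKO replicate 1, the mouse with the highest Pck2, and at most 2.14 CPM in any control.

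Gluconeogenesis is a function of periportal hepatocytes, so genes of both ends of the liver lobule were listed. Of 12 periportal genes, 0 passed in males by edgeR, with 6 at an unadjusted p under 0.05 and 3 by DESeq2, and 1 fell in females, Cyp2f2, from 641 to 119.6 CPM, by 2.42 in log2 (edgeR adjusted p = 0.0149). In females 10 of the 12 had an unadjusted p under 0.05, DESeq2 called 4, and 1 to 5 passed with a library left out. The periportal median was -0.71 in males and -0.78 in females, with 1 gene above 0 in each sex. In males the smallest p was that of Pigr, at -0.81 (edgeR adjusted p = 0.0837). Of 11 pericentral genes 0 passed in either sex by edgeR, with 1 in males and 0 in females at an unadjusted p under 0.05 and 0 by DESeq2 in both, and medians of -0.08 and 0.44. The male median was 0.16 without CRE- replicate 2 and the female median -0.46 without LKO replicate 4, so the sign of each rested on a mouse. Tbx3 in males and Axin2 in females had the smallest p, at 0.76 and 0.97 in log2, the latter 0.27 without female LKO replicate 4. Of 13 clock genes 0 passed in either sex by edgeR, with 0 in males and 1 in females at an unadjusted p under 0.05 and 0 and 1 by DESeq2. Npas2 in males, at 2.29, and Per1 in females, at 1.79, had the smallest p. Npas2 was at 0.309, 0.375, 8.92 and 0.513 CPM in male LKO mice, and its value was -0.36 without replicate 3. The medians of the clock genes were -0.20 in males and 0.02 in females. Between female and male CRE- controls their median was -0.79. There 0 of 13 passed by edgeR, with 6 at an unadjusted p under 0.05, beside 2121 of all 16742 genes. Single livers also stood apart. Dbp, a clock output gene, was at 12.2 CPM in male LKO replicate 3, 13.2 and 2.75 CPM in female CRE- replicates 1 and 2, and 5.59 and 4.86 CPM in female LKO replicates 1 and 4. All other libraries held 106.6 to 246 CPM, and the relation of Dbp to the 7 genes was not tested.

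Markers of cell types were summed in each library to show what else moved with the 7 genes. The 9 hepatocyte markers tested, led by Alb, summed to 129411 to 155670 CPM in female controls. In female LKO mice they summed to 62240 to 110099 CPM, with no overlap. Their median log2 fold change in females was -0.47, and 0 of 9 passed by edgeR, with 2 at an unadjusted p under 0.05. Alb alone was at 90167 to 105504 CPM in female controls and 41687 to 71962 CPM in female LKO mice. The other markers of this list, Apoa1, Apoa2, Ttr, Fgb, Ahsg, Serpina1a, Cyp2e1 and Hnf4a, each overlapped between these groups. Alb, the most abundant of the 9, was thus the only marker without overlap. Female LKO replicate 1 had the lowest sum, 62240 CPM, and also the lowest Gcgr, Fbp1, G6pc1 and Slc37a4 of the female libraries. Without it the female log2 fold changes of Fbp1, G6pc1 and Slc37a4 were -0.27, -0.23 and -0.02. The macrophage markers, led by Cd5l, summed to 4025 CPM in that mouse, beside 1196 to 2532 CPM in the other female LKO mice and 647 to 1220.2 CPM in female controls. Of the 11, 2 passed and all 11 had an unadjusted p under 0.05, and their median in log2 was 1.51. The neutrophil markers, led by S100a9, summed to 42.8 to 502 CPM in female LKO mice and to 16.2 to 35.0 CPM in female controls, and of 5 tested, 2 passed and all 5 had an unadjusted p under 0.05, with a median of 3.17. Of 5 proliferation markers, led by Mki67, 4 rose in females, with a median of 1.72. The part of these cells in the levels of the 7 genes was not tested.

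In males the hepatocyte sums overlapped, at 81705 to 112595 CPM in controls and 77799 to 106959 CPM in LKO mice. Skeletal muscle markers, led by Acta1, summed to 137 CPM in male LKO replicate 3 and 76.8 CPM in male LKO replicate 4, and to at most 1.93 CPM in the other male libraries. Without both of these LKO mice the male log2 fold change was -1.84 for Pck1 (edgeR adjusted p = 0.574), 1.74 for Pck2 (edgeR adjusted p = 0.0814) and -1.22 for G6pc1 (edgeR adjusted p = 0.695), each farther from 0 than with them. Adipocyte markers, led by Cfd, summed to 111 and 86.8 CPM in male LKO replicates 2 and 4 and to at most 26.8 CPM in the other male libraries. Cfd alone was at 103 CPM in replicate 2 and 79.1 CPM in replicate 4. Adipoq, Plin1, Lep and Retn were at 0 in replicate 2, and Adipoq was at 1.89 CPM in replicate 4. Of the 6 adipocyte markers 0 passed by edgeR, with 2 at an unadjusted p under 0.05. Erythroid markers, led by Hbb-bs, summed to 559 to 1039.6 CPM in male controls and 196 to 492 CPM in male LKO mice, without overlap, with a median log2 fold change of -1.28. For these 0 of 6 passed by edgeR, with 5 at an unadjusted p under 0.05. Neutrophil markers in males had a median of -2.23, with overlapping sums, and 0 of 5 passed by edgeR, with 5 at an unadjusted p under 0.05. The part of these cells in the male values was not tested. Kidney tubule markers, from the other gluconeogenic organ, summed to at most 1.49 CPM in any library, led by Lrp2, with Kap, Slc22a6, Slc12a1 and Aqp2 at 0 counts in all 16.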

How the data were processed

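The authors aligned paired reads to GRCm39 with STAR 2.7.1a and counted them per gene and strand with featureCounts of Subread 2.0.6, and they deposited a raw count for each of 41079 genes in each library. With the options they list, that version counts reads rather than pairs. Here genes were filtered with filterByExpr (minimum count 10), which kept 16742, normalized by TMM and fitted together as 4 groups by edgeR 4.0.16 in R 4.3.3, using the quasi-likelihood test with Benjamini-Hochberg adjustment over all genes tested and a threshold of 0.05. DESeq2 1.42.0 served as an alternative, beside other normalization and filters, each pair of groups alone, a replicate block and leave-one-out fits. The fit was tested on simulated data, with changes put into the male LKO group only; in the male comparison it missed most of the smaller and found most of the larger. No pair of libraries of a group agreed within sampling noise.

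Genes named from each pathway list and sex were among the 5 with the smallest p past the threshold, or else the gene with the smallest p. Dbp was named outside this rule, for the livers that stood apart in it. The members and lists were chosen with earlier results of these data known. Like genes had a mean log2 CPM of at least 1 (prior count 2). Replicates are separate mice by the labels.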

Additional observations from a re-analysis of the deposited data

Results flagged for a closer look

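In 8 genes and 4 groups, each group of 4 mice was examined for a value far from the other 3, which chance gives in about 1 in 20 groups; 4 of 32 stood out. Pck1 was at 2765 CPM in female LKO replicate 2, where the other female LKO mice were at 760.2 to 826 CPM. G6pc1 was at 194 CPM in male CRE- replicate 4, below the other male controls at 236 to 242 CPM. Slc37a4 was at 182 CPM in male CRE- replicate 2, above the other male controls at 129 to 136 CPM. Gcgr was at 127 CPM in male CRE- replicate 3, below the other male controls at 189.6 to 193 CPM.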

How the results depend on the processing

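With each library left out in turn, 0 of the 7 genes passed in any comparison. The genes called over all genes tested then ran from 26 to 49 in males, 87 to 1310 in females, 0 to 14 for the sex difference of the genotype effect and 68 to 149 between controls; the 87 was without female CRE- replicate 2 and the 1310 without female LKO replicate 2. Female Gcgr ran from -1.11 to -0.69, and was -0.92 with DESeq2 (adjusted p = 0.00909). DESeq2 called 335, 1795, 369 and 498 genes in the same order, and 1 of the 7 in males, 1 in females and 1 for the sex difference. With no filter the sex difference had 12 genes and female Gcgr was -0.92 (edgeR adjusted p = 0.0545). With at least 10 counts in every library the controls differed in 78 genes and female Gcgr was -0.89 (edgeR adjusted p = 0.0506). With the groups fitted alone there were 119 genes in females and 249 between controls, and female Gcgr was -0.91 (edgeR adjusted p = 0.132). The cause of these shifts was not tested.

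Among the 7 genes, estimates close to 0 turned direction. The sex difference for G6pc1, -0.01, was 0.0232 with DESeq2, 0.0233 with RLE normalization, 0.0070 with no filter and 0.0362 with at least 10 counts in every library. With libraries left out it ran from -0.48 to 0.24 for G6pc1 and -0.16 to 0.0537 for Pcx. Female Ppargc1a ran from -0.21 to 0.30, and between controls Pcx ran from -0.13 to 0.0704, Pck2 from -0.35 to 0.07 and Fbp1 from -0.0213 to 0.25. Without both male LKO mice high in muscle markers, a choice made after seeing the data, 22 genes were called in males, and the sex difference was 0.73 for G6pc1 and 0.0592 for Pcx. This fit leaves fewer samples.

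Medians of pathway lists also turned sign with a library left out. In females the pericentral median, 0.44, was -0.46 and that of the opposing glycolytic steps, 0.23, was -0.04, each without LKO replicate 4. The female median of the reversible steps, -0.08, was 0.08 without LKO replicate 1, and that of the clock genes, 0.02, was -0.37 without LKO replicate 2. In males the pericentral median, -0.08, was 0.16 without CRE- replicate 2, that of the relatives, 0.14, was -0.07 without CRE- replicate 4, and that of the other cAMP-responsive genes, 0.01, was -0.10 without CRE- replicate 1. The male median of substrate entry, 0.10, was -0.01 without CRE- replicate 3, and the female median of the regulators ran from -0.11 to 0.12.

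The replicate numbers were checked as a pairing. Deviations from group means of same-numbered mice correlated at -0.01 to 0.17 in males and 0.03 to 0.17 in females. Control replicates 1 and 3 in males and 1 and 2 in females correlated best with their own number, and the others did not. With 4 mice per group this check cannot exclude a pairing. The main fit did not use the numbers as a block. With a replicate block 1244 genes were called in females, beside 710 without it, and 0 of the 7.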
